A study of Mus with 14 samples.

Results

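The genes described here are the replication-dependent histone genes of the mouse, taken as every gene whose symbol has the older form Hist1h to Hist4h and that reached at least 10 unique molecular identifiers (UMIs, each standing for 1 captured RNA molecule) over all 14 libraries. Of 32285 genes in the feature list, 67 had such a symbol and 64 reached the threshold. These 64 were 6 genes for the linker histone H1, 17 for H2A, 16 for H2B, 12 for H3 and 13 for H4. Hist1h2aa with 7 UMIs, Hist1h2bq with 5 and Hist1h2ba with 0 fell outside, and Hist2h2aa2 with 11 and Hist1h1t with 196 were the lowest inside. The rule used total UMIs over all libraries and no difference between groups. By RefSeq's GRCm38.p6 annotation, 63 of the 64 matched a single gene, of which 50 lie on chromosome 13, 10 on chromosome 3, 2 on chromosome 11 and 1 on chromosome 6. Hist1h2ap matched more than 1 entry, so no position is given for it.

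The libraries were 10x Genomics 3′ single-cell libraries (v3.1 chemistry), each made from the bone marrow of 1 mouse sorted for Lin-Kit+CD45.2+ cells, a gate that holds blood stem and progenitor cells. CD45.2+ cells had been transplanted together with an equal number of CD45.1+ marrow cells into aged, lethally irradiated CD45.1+ hosts, which received poly(I:C) 1 month later. The marrow went on to secondary hosts, aged and lethally irradiated too, that were harvested 20 weeks after that transplant. The series asks how the TNFα receptors act in Dnmt3a-mutant blood formation. The labels name 4 genotypes: MxCre (3 mice, the controls), Dnmt3a (4 mice), Dnmt3a;Tnfr1KO (3 mice) and Dnmt3a;Tnfr2KO (4 mice), the last pair written Tnfr1KO and Tnfr2KO below. The Dnmt3a allele is not named in the labels, Mx-Cre is switched on by interferon in blood cells and in some other tissues, and the labels do not say which hosts share a primary donor. The p-values therefore measure the spread between hosts, which may be smaller than the spread between donors.

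Histones package DNA: pairs of H2A, H2B, H3 and H4 form the core particle, and H1 binds the linker DNA where it enters and leaves that particle. Cells make most of this protein during S phase, from clustered genes switched on by NPAT downstream of cyclin E and CDK2. The transcripts normally end in a stem-loop bound by SLBP instead of a poly(A) tail. The libraries capture RNA by its poly(A), so they count whatever share of each transcript carries one, and levels are compared here within a gene or a fixed sum of genes, not between genes. Some members, Hist1h1c and Hist1h2bc among them, are known to give polyadenylated transcripts in cells that are not dividing.

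The libraries held between 62416022 and 162870000 UMIs over all barcodes, and 66895 of 86693 barcodes were kept, 1924 to 7265 per mouse, with a median of 10650 to 39098 UMIs per cell. Pairs of libraries shared 1 to 15 barcodes, at most 0.364% of a library. Kit was present at 69.0 to 182 CPM (UMIs of the gene per 1000000 UMIs of the cells counted), Cd34 at 127 to 234 and Ptprc at 70.1 to 155. Tnfrsf1b, the gene of TNF receptor 2, was at 3.96 to 5.47 CPM in the Tnfr2KO mice and at 10.3 to 17.4 in the others. Tnfrsf1a, the gene of TNF receptor 1, was at 33.3 to 37.9 CPM in the mice labelled Tnfr1KO against 37.8 to 63.8 in the others. A 3′ tag outside a deleted part checks nothing, so the Tnfr1KO label rests on the submitters' word. Dnmt3a itself was at 29.6 to 38.8 CPM in the Dnmt3a mice and 18.9 to 30.8 in the others.

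Dnmt3a replicate 1 stood apart from all other libraries: 26.5% of its barcodes were kept, its median of 39098 UMIs per cell was the highest, and it held the highest level of 44 of the 64 histone genes. Its summed level of the RNA quality list (Malat1, Neat1, Gm42418, AY036118 and Lars2) was also the highest, 13190 CPM against 3333 to 9982 in the other 13, and the part of this in its histone level was not tested. The main sums, folds and edgeR counts that rest on the Dnmt3a group are therefore given with and without it, while DESeq2 counts and those with library totals or the library set term include it. Each deposited library also carries a number in its name, 1 to 17 for the 8 MxCre, Tnfr1KO and first 2 Tnfr2KO libraries and 26 to 39 for the 4 Dnmt3a and last 2 Tnfr2KO libraries. The labels do not call this a batch. The number and the genotype cannot be told apart between Dnmt3a and MxCre or between Dnmt3a and Tnfr1KO, and only Tnfr2KO has libraries of both kinds.

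Summed over all 64 genes, histone UMIs were at 3192, 2782 and 2705 CPM in the MxCre mice and at 8529.8, 3104, 2399 and 3063 CPM in the Dnmt3a mice. The Tnfr1KO mice held 3594, 3189 and 2450.1 CPM and the Tnfr2KO mice 4566, 2051, 2706 and 1367 CPM. The group means were 2893 ± 261 (SD, n = 3), 4274 ± 2856 (n = 4), 3078 ± 580.2 (n = 3) and 2672 ± 1375 (n = 4), and all 4 ranges overlapped. The Dnmt3a mean was 1.48 times the MxCre mean, and 0.987 times without Dnmt3a replicate 1. The total thus did not separate the genotypes, while the H1 sum set the Dnmt3a mice above all others, as the plot of summed levels by type shows. Without Hist1h2ap, a gene set aside after its values were seen, the total was at 8445, 3001, 2344.5 and 2969 CPM in Dnmt3a. It was then at 1968, 2213 and 2056 CPM in MxCre, 1896 to 2343.6 in Tnfr1KO and 1308 to 2638 in Tnfr2KO. Dnmt3a then overlapped Tnfr2KO but not MxCre. It did not overlap Tnfr1KO either, but the nearest mice of these 2 groups were almost equal, at 2344.5 and 2343.6 CPM.

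**Figure D1:**
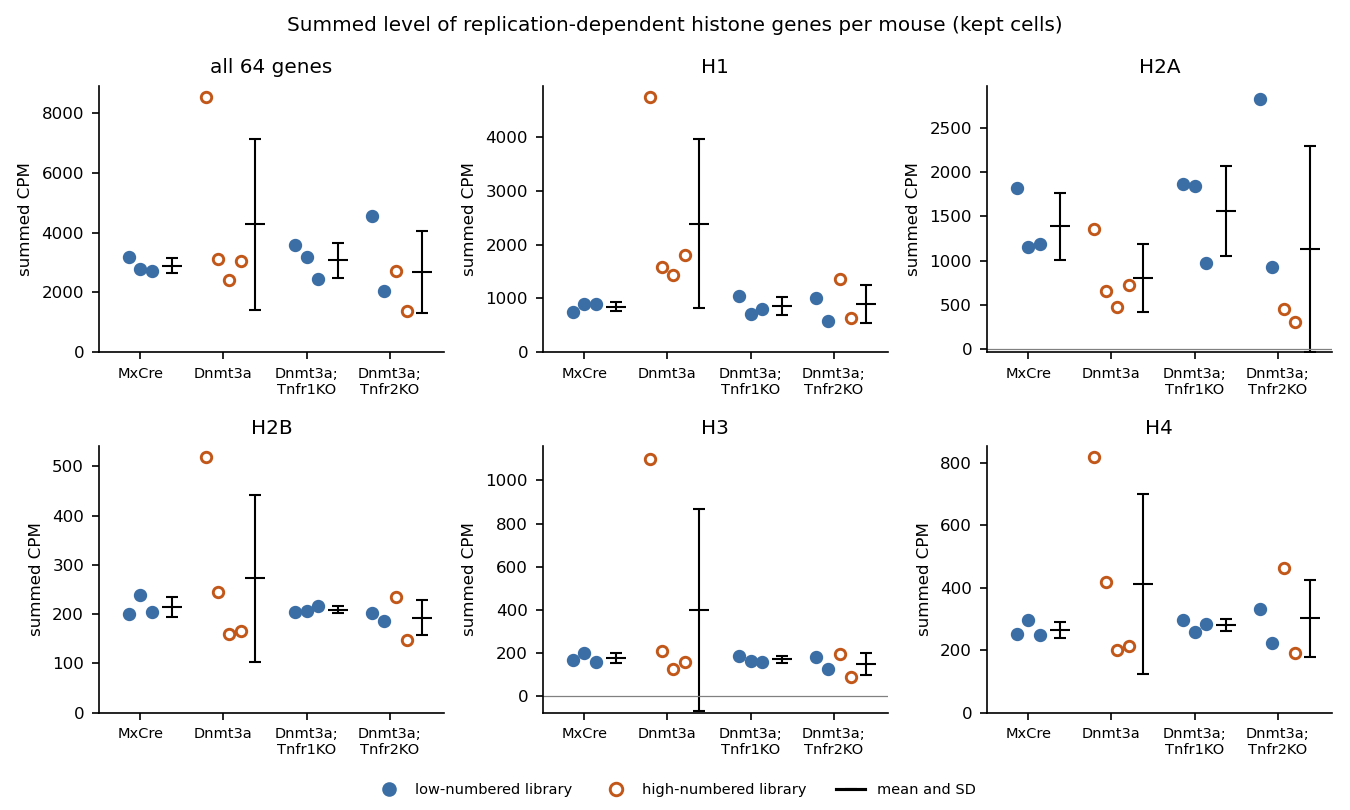
Summed level of the histone genes in CPM (y axis) per mouse in the 4 groups (x axis), for all 64 genes and for each type, with the group mean and SD in black. Filled blue points are libraries numbered 1 to 17 and open orange points those numbered 26 to 39. In the H1 panel the 4 Dnmt3a mice sit between 1438 and 4733 CPM, above every other mouse.

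The summed level of the 6 H1 genes was higher in every Dnmt3a mouse than in any other mouse, as was that of 2 of them, Hist1h1b and Hist1h1a. Of 63 histone genes tested, these 2 were the only ones with that order. This share lies below the 4.92% of all genes that were higher in every Dnmt3a mouse than in any of the other 10. The 6 genes together were at 4733, 1577, 1438 and 1798 CPM in the Dnmt3a mice, against 751, 894 and 899.9 CPM in the MxCre mice. The Tnfr1KO mice held 1041, 714 and 808 CPM and the Tnfr2KO mice 1015, 589, 1353 and 628 CPM. The Dnmt3a mean of 2387 ± 1571 (SD, n = 4) was 2.81 times the MxCre mean of 848 ± 84.2 (n = 3), and 1.89 times without Dnmt3a replicate 1. Against Dnmt3a, the Tnfr1KO mean was 0.358 times as high and the Tnfr2KO mean 0.376 times, or 0.533 and 0.559 times without Dnmt3a replicate 1. Hist1h1b alone held 30.1%, 29.5%, 42.7% and 40.1% of the histone UMIs of the Dnmt3a mice. The 6 H1 genes together held 55.5%, 50.8%, 59.9% and 58.7%. These shares followed the library number. In Tnfr2KO replicates 3 and 4, Hist1h1b held 32.7% and 28.7% and the H1 genes 50.01% and 45.96%. In the 8 low-numbered libraries they held 12.8% to 19.5% and 22.2% to 33.3%. Hist1h2ap, part of the same total, held 20.4% to 44.97% in the low-numbered libraries and 0.989% to 4.35% in the high-numbered ones. Its part in the H1 share was not tested. Without Hist1h1b the H1 sum did not keep its order. Dnmt3a replicate 3 then lay slightly below MxCre replicate 2, and also below Tnfr2KO replicate 3. These sums carry no p because the genes were chosen with earlier results known. The Tnfr2KO mice of the high-numbered libraries held 1353 CPM, above all 8 low-numbered libraries, and 628 CPM. The part of the library number in this order was not tested for the sum.

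The summed level of the S phase list (39 replication genes, no histone among them) was also higher in the Dnmt3a mice, at 4583, 3845, 4004 and 3714 CPM against 3272 to 3638 CPM over the other 10 mice. The G2/M list (32 genes of late cell cycle, again with no histone) was at 4549, 2950.4, 3813 and 4936 CPM in the Dnmt3a mice and at 2909 to 3378 CPM in the others, so Dnmt3a replicates 1, 3 and 4 were high and replicate 2 was not. Dnmt3a replicate 4 was also the mouse with the most B-lymphoid-marker cells, 2081 of 5422 or 38.4%, against 0.0492% to 10.9% in the other 13. Without such cells, a choice made after seeing the data, its G2/M sum was 4082 CPM and its H1 sum 1601 CPM. The 4 Dnmt3a mice then held 1421 to 4594 CPM of H1 and the other 10 mice 589 to 1353 CPM, again without overlap. The part of either list in the H1 sum was not tested, and the sum within cells split by these lists follows.

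Among cells with few UMIs of the S phase list (at most 10 of 5000 UMIs drawn per cell), the Dnmt3a mice held 917 to 2685 CPM of H1, against 553 to 641 in MxCre, 565 to 673 in Tnfr1KO and 423 to 832 in Tnfr2KO. Among cells with many of them (at least 24), the Dnmt3a mice held 5268, 1741, 1653 and 2628 CPM, the MxCre mice 897 to 1059 and the Tnfr1KO mice 804 to 1265. The Tnfr2KO mice held 1264, 694.9, 1778 and 797 CPM there, so replicate 3 lay above Dnmt3a replicates 2 and 3 and the groups overlapped. Among cells with few UMIs of the G2/M list (at most 3), the Dnmt3a mice held 729, 304, 252 and 169 CPM and the MxCre mice 180.3 to 189, so Dnmt3a replicate 4 lay below the controls. The Tnfr1KO and Tnfr2KO mice held 134 to 215 and 135 to 249 CPM there. Among cells with many UMIs of the G2/M list (at least 22), the 4 Dnmt3a mice, at 1837 to 6572 CPM, lay above the other 10, at 799 to 1666.

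Hist1h1b (H1.5, GRCm38 chromosome 13, 21779832 to 21780625) was the member with the most UMIs, 1105178 in kept cells. It was at 2570.0, 917, 1025 and 1229 CPM in the Dnmt3a mice and at 446, 477 and 499 CPM in the MxCre mice. In the Tnfr1KO mice it was at 657, 409 and 479 CPM, and in the Tnfr2KO mice at 654, 345, 885 and 393 CPM. The Dnmt3a mice did not overlap any other group, yet the log2 fold change of 1.48 (SE 0.38) against MxCre missed the threshold of 0.05 over all 15621 genes, with an edgeR adjusted p of 0.0576. Hist1h1a (H1.1, chromosome 13, 23763668 to 23764412) had the same order, with 361, 103, 88.6 and 118 CPM in Dnmt3a against 41.9, 48.9 and 51.4 in MxCre, a log2 fold change of 1.69 (SE 0.460, edgeR adjusted p 0.0639). With Dnmt3a replicate 1 left out, the folds of Hist1h1b and Hist1h1a were 1.1 and 1.06 (edgeR adjusted p 0.105 and 0.111).

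The remaining somatic H1 genes were led by Dnmt3a replicate 1 and overlapped between Dnmt3a and MxCre. Hist1h1e and Hist1h1c did not overlap between Tnfr1KO and Dnmt3a, a comparison in which 20.3% of all genes did not. Their Tnfr1KO mice were at 159.3 to 204.7 and 54.6 to 57.6 CPM. Hist1h1e (H1.4, chromosome 13, 23621777 to 23622558) was at 1194, 369.8, 206 and 300.4 CPM in Dnmt3a and at 163, 233 and 229 in MxCre, so Dnmt3a replicate 3 lay within the controls. Hist1h1c (H1.2) ran from 71.6 to 374 CPM in Dnmt3a and from 53.2 to 76.2 in MxCre, and Hist1h1d (H1.3) from 46.4 to 234 and from 46.1 to 57.8. Their log2 fold changes against MxCre were 1.18 (SE 0.472), 1.19 (SE 0.420) and 0.85 (SE 0.42), with edgeR adjusted p of 0.153, 0.115 and 0.243. Without Dnmt3a replicate 1 they were 0.43, 0.43 and 0.15 (edgeR adjusted p 0.437, 0.205 and 0.761).

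The H2A genes together were lower on average in Dnmt3a, at 0.578 times the MxCre mean and 0.444 times without Dnmt3a replicate 1. Without 1 gene, Hist1h2ap, the means had the opposite order, and that order rested on Dnmt3a replicate 1. The H2A genes were at 1821, 1151 and 1191 CPM in MxCre, 1358, 654, 471 and 726 in Dnmt3a, 1863, 1846 and 979 in Tnfr1KO and 2834, 924, 456 and 308 in Tnfr2KO, and the Dnmt3a and MxCre ranges overlapped. Hist1h2ap was at 1224, 568 and 649.5 CPM in MxCre, at 1251, 1294 and 506 in Tnfr1KO, and at 84.3, 103, 54.9 and 94.0 in Dnmt3a. The Tnfr2KO mice split, with 2053 and 510.4 CPM in replicates 1 and 2 and 67.9 and 59.5 CPM in replicates 3 and 4. The groups did not overlap between Dnmt3a and MxCre, but the split followed the library number in all 14 mice: 506 to 2053 CPM in the 8 low-numbered libraries and 54.9 to 103 CPM in the 6 high-numbered ones.

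With the library set as a term in the fit, a choice made after seeing the data, the low-numbered libraries were higher for Hist1h2ap by 4.33 on the log2 scale (SE 0.706, edgeR adjusted p 0.0376), an estimate that rests on the 4 Tnfr2KO mice. It was the only histone gene among the 20 genes that passed for that term (0.128% of those tested). Hist2h2aa1, Hist1h2br and Hist2h3b were also ordered by library number without overlap. These were 4 of 63 histone genes tested, against 1.09% of all genes. Hist1h2ap lies in a family of nearly identical H2A genes (Hist1h2ai, Hist1h2an and Hist1h2ao among them), so reads may be shared between these copies. Its neighbour in that family, Hist1h2an (chromosome 13, 21786774 to 21787248), had the opposite order, with 113, 7.75, 13.2 and 19.5 CPM in Dnmt3a and 4.61, 5.16 and 4.10 in MxCre. How reads were divided between the copies was not tested. Without Hist1h2ap, a gene set aside after its values were seen, the H2A sum was at 597, 583 and 542 CPM in MxCre (mean 574 ± 28.8, SD, n = 3) and at 1274, 550.4, 416 and 632 CPM in Dnmt3a (mean 718 ± 381, n = 4). The ranges overlapped, with Dnmt3a replicates 1 and 4 above the controls and replicates 2 and 3 below the MxCre mean. With Dnmt3a replicate 1 also left out, the Dnmt3a mean lay below the MxCre mean.

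**Figure D2:**
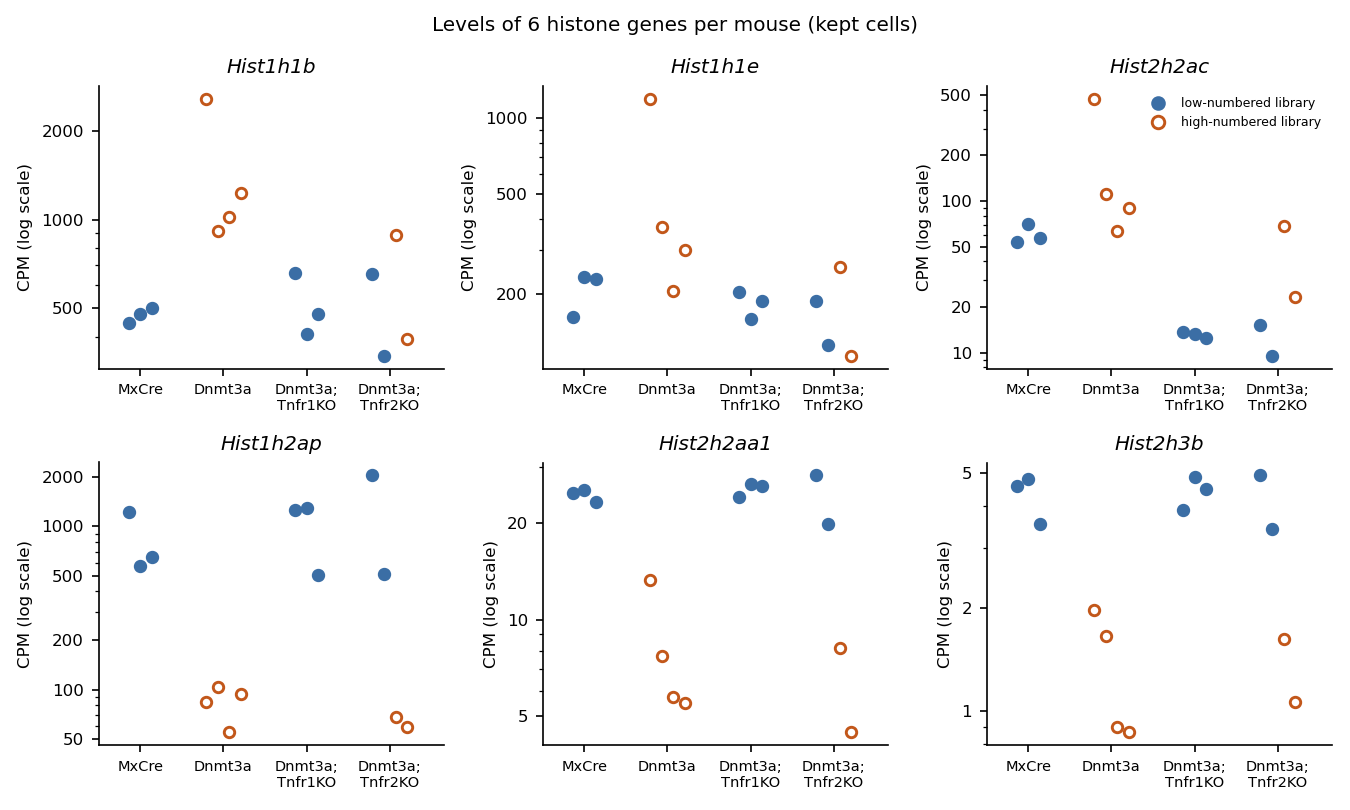
Level of 6 histone genes in CPM on a log scale (y axis) per mouse and group (x axis), with filled blue points for libraries numbered 1 to 17 and open orange points for those numbered 26 to 39. Hist1h2ap, Hist2h2aa1 and Hist2h3b split by library number within Tnfr2KO, while Hist2h2ac is lowest in the Tnfr1KO mice and in Tnfr2KO replicates 1 and 2.

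Hist2h2ac (H2A gene of the chromosome 3 cluster, 96220413 to 96220880) was at 13.8, 13.3 and 12.5 CPM in the Tnfr1KO mice, and at 15.2, 9.57, 68.6 and 23.2 CPM in the Tnfr2KO mice. The MxCre mice held 53.5, 70.8 and 57.0 CPM and the Dnmt3a mice 471, 111, 63.0 and 89.5 CPM. All 3 Tnfr1KO mice lay below all MxCre and Dnmt3a mice, and Tnfr2KO replicate 3 lay among the Dnmt3a mice. Over all kept cells the log2 fold change of Tnfr1KO against Dnmt3a was -3.54 (SE 0.764, edgeR adjusted p 0.0580), and that of Tnfr2KO against Dnmt3a was -2.37 (SE 0.644, edgeR adjusted p 0.0829), so neither passed. When Dnmt3a replicate 1 was left out, these were -2.57 and -1.42 (edgeR adjusted p 0.0923 and 0.191).

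Among the 8 low-numbered libraries alone, a comparison chosen after seeing the data, Hist2h2ac was lower than in MxCre in both receptor genotypes. The 2 low-numbered Tnfr2KO mice were at 15.2 and 9.57 CPM and the 3 MxCre mice at 53.5 to 70.8 CPM. Against MxCre, Hist2h2ac fell by 2.10 on the log2 scale in Tnfr1KO (SE 0.201, edgeR adjusted p 0.00244, where 2.3% of genes passed) and by 2.19 in Tnfr2KO (SE 0.234, edgeR adjusted p 0.00410, where 0.807% passed). The Tnfr2KO and Tnfr1KO mice of these libraries differed by -0.09 (SE 0.218, edgeR adjusted p 0.999). In granulocyte-marker cells of these libraries Hist2h2ac fell against MxCre by 2.24 in Tnfr1KO and 2.29 in Tnfr2KO (edgeR adjusted p 0.000364 and 0.000631). In HSC/MPP-marker cells it fell by 2.33 and 1.91 (edgeR adjusted p 7.79e-06 and 4.92e-05). Both cell sets are part of the kept cells of the same mice, so they are not separate support. In the fit of all mice over all kept cells, Hist2h2ac passed against MxCre in neither genotype. Among the 6 high-numbered libraries, the difference between Tnfr2KO and Dnmt3a of -1.67 (SE 0.849) did not pass, with an edgeR adjusted p of 0.543. Those libraries hold no MxCre mouse, so the difference from MxCre cannot be had there.

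Of the other H2A genes, Hist1h2ae ranged from 130.1 to 584 CPM over the 14 mice and overlapped between all groups. Hist2h2aa1 (chromosome 3, 96245497 to 96246052) was at 24.9, 25.4 and 23.3 CPM in MxCre and at 13.3, 7.73, 5.73 and 5.50 in Dnmt3a, without overlap. In Tnfr2KO it followed the library number, with 28.2 and 19.9 CPM against 8.19 and 4.46. Hist2h2aa1 has a near-identical copy, Hist2h2aa2, so its counts may hold reads of both.

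The H2B genes together were at 201 to 238 CPM in MxCre, 160.1 to 519.9 in Dnmt3a, 204 to 217 in Tnfr1KO and 148 to 235 in Tnfr2KO, and all ranges overlapped. Their Dnmt3a mean was 1.27 times the MxCre mean, and 0.888 times without Dnmt3a replicate 1. Hist1h2bc was among the steadiest members, at 31.4 to 55.1 CPM over all 14 mice. Its level was 49.7, 55.1 and 52.0 CPM in MxCre and 33.9, 50.9, 40.7 and 31.4 CPM in Dnmt3a, and the ranges overlapped. Hist1h2br showed the library-number order, with 10.6 to 18.5 CPM in MxCre and 2.71 to 6.92 CPM in Dnmt3a.

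The H3 genes were at 167, 203 and 161 CPM in MxCre and at 1099.7, 209.6, 129 and 160.4 CPM in Dnmt3a, so only Dnmt3a replicate 1 lay above the controls by a wide margin. The Dnmt3a mean was 2.26 times the MxCre mean with that mouse and 0.941 times without it. Hist1h3c carried most of this, at 714 CPM in Dnmt3a replicate 1 and 23.1 to 85.5 CPM in the other 13 mice. Hist2h3b (chromosome 3, 96268654 to 96269155), a gene of low level, was at 4.57, 4.78 and 3.53 CPM in MxCre and at 1.98, 1.66, 0.897 and 0.866 CPM in Dnmt3a. In Tnfr2KO it was at 4.91 and 3.43 CPM in replicates 1 and 2 and at 1.62 and 1.07 in replicates 3 and 4, again by library number.

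The H4 genes were at 252, 296 and 249 CPM in MxCre and 819, 418, 201 and 212 CPM in Dnmt3a, with overlapping ranges. The Dnmt3a mean was 1.55 times the MxCre mean, and 1.04 times without Dnmt3a replicate 1. Hist1h4d followed that sum, from 76.1 CPM in Tnfr2KO replicate 4 to 569 CPM in Dnmt3a replicate 1. Hist1h4i had the narrowest spread of the 12 members with the most UMIs, with 54.2 CPM at the lowest and 81.4 at the highest. Its Dnmt3a mice, at 57.5, 63.5, 69.9 and 63.0 CPM, all lay below the MxCre mice at 78.1, 73.9 and 70.8, a log2 difference of -0.31 (SE 0.134, edgeR adjusted p 0.180).

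**Figure D3:**
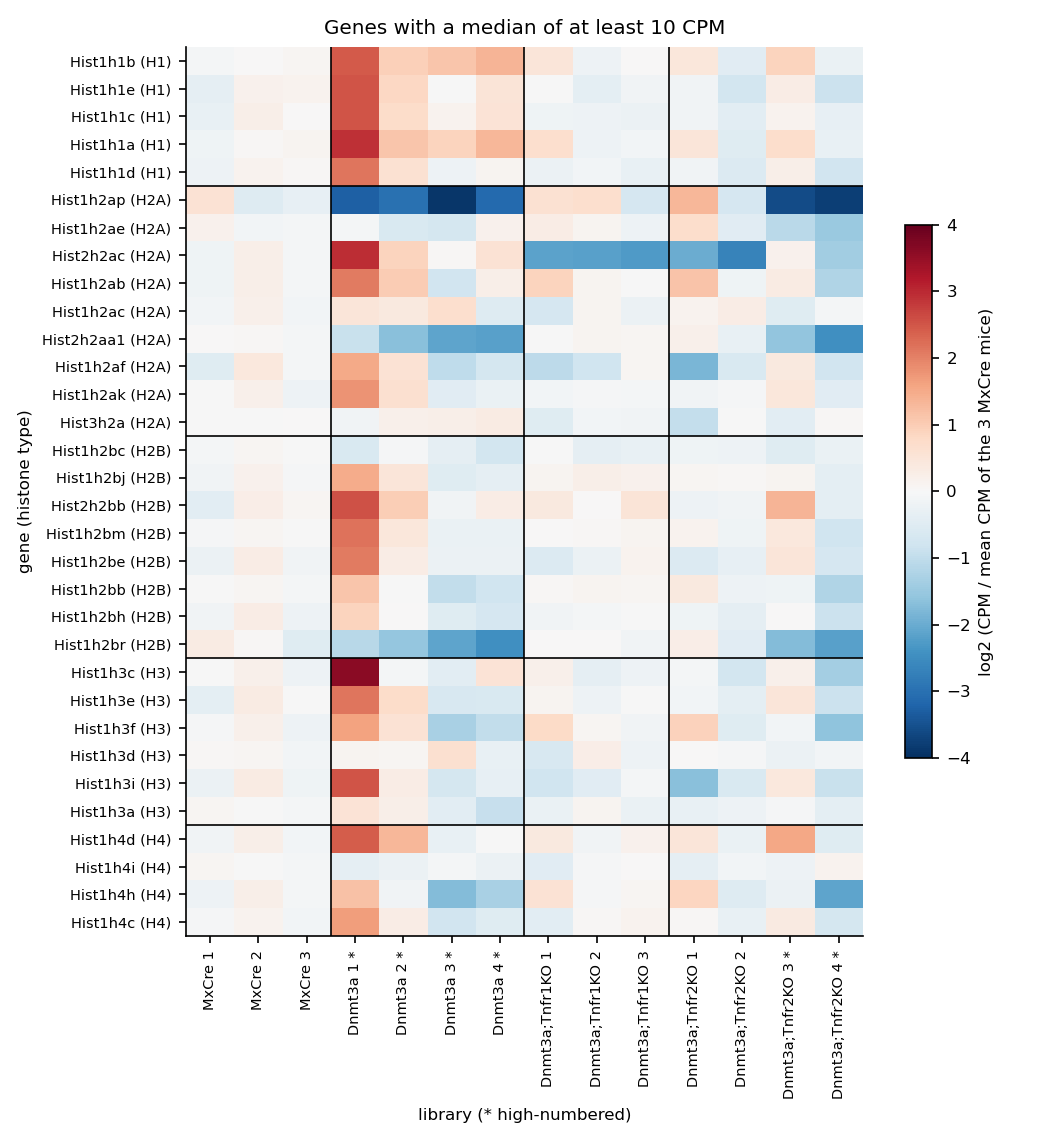
Level of the 32 histone genes with a median of at least 10 CPM (vertical) in each of the 14 libraries (horizontal), coloured by log2 of the CPM over the mean of the 3 MxCre mice, from -4 to 4, with an asterisk on high-numbered libraries. The column of Dnmt3a replicate 1 is the highest for 23 of the 32 genes and that of Tnfr2KO replicate 4 the lowest for 15.

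Tested gene by gene over all kept cells, 1 of 63 histone genes differed between Dnmt3a and MxCre, where 2.38% of all 15621 genes did. It was Hist2h3b, which fell by 1.78 on the log2 scale (SE 0.434, edgeR adjusted p 0.0494), and without Dnmt3a replicate 1 it missed the threshold at -1.98 (edgeR adjusted p 0.0792), where 0.00643% of all genes passed. It was also lost with doublet calls kept, and with the library set as a term it was at -0.18 (edgeR adjusted p 0.911, where 0.122% of all genes passed). Hist2h3b passed in 8 of 23 alternatives. No histone gene passed for Tnfr1KO against Dnmt3a (0.455% of all genes), Tnfr2KO against Dnmt3a (1.04%), Tnfr2KO against Tnfr1KO (0.205%), Tnfr1KO against MxCre (0.301%) or Tnfr2KO against MxCre (0.39%). At an unadjusted p under 0.05, edgeR counted 12, 15, 13, 0, 2 and 0 of 63 in these 6 comparisons, beside 23.6%, 19.7%, 23%, 3.91%, 11.9% and 15.6% of all genes. DESeq2, on the same sums, passed 7 between Dnmt3a and MxCre, where it passed 9.49% of all genes, 6 between Tnfr1KO and Dnmt3a (5.76%) and 4 between Tnfr2KO and Dnmt3a (6.68%). These 3 comparisons share the Dnmt3a mice. With library totals in place of TMM factors, which moved the median of all genes to -0.25 and -0.24, 4 passed for Tnfr1KO against Dnmt3a (3.5% of all genes) and 7 for Tnfr2KO against Dnmt3a (9.97%), Hist2h2ac and Hist1h1b among them in both.

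The median log2 difference of the 63 genes between Dnmt3a and MxCre was 0.29, with 42 above 0, beside 0.03 over all genes. By type it was 1.18 for H1 (5 of 6 above 0), 0.31 for H2A, 0.27 for H2B, 0.07 for H3 and 0.23 for H4. Tnfr1KO against Dnmt3a gave -0.21 (25 of 63 above 0) beside -0.05 over all genes, and Tnfr2KO against Dnmt3a gave -0.12 (23 above 0) beside -0.03. Without Dnmt3a replicate 1 all 3 medians turned, to -0.12 (25 of 63 above 0) for Dnmt3a against MxCre, 0.16 (39) for Tnfr1KO against Dnmt3a and 0.19 (42) for Tnfr2KO against Dnmt3a. By type the Dnmt3a against MxCre median was then 0.43 for H1, -0.06 for H2A, -0.10 for H2B, -0.16 for H3 and -0.37 for H4, so H1 alone kept its sign.

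Ranges of Dnmt3a and MxCre did not overlap for 10 of 63 histone genes, beside 19.8% of all genes: Hist1h1b, Hist1h1a, Hist1h2an, Hist1h2ao and Hist1h3h were higher (13.5% of all genes), and Hist1h2ap, Hist1h4i, Hist2h2aa1, Hist1h2br and Hist2h3b lower (6.25%). Tnfr1KO and Dnmt3a did not overlap for 12 (20.3% of all genes) and Tnfr2KO and Dnmt3a for 2, Hist1h1b and Hist1h1a (15.3%). With Dnmt3a replicate 1 left out, these counts were 17, 20 and 3, beside 24.7%, 23.3% and 16.9% of all genes.

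Cells carrying markers of blood stem cells and multipotent progenitors (HSC/MPP, at least 3 of 8 markers such as Hlf, Mecom and Procr) numbered 2376, from 36 to 773 per mouse, and 1393 of them lay at the lower limit of the rule. In these cells the H1 genes together were at 3112, 1261, 1250.3 and 1369.5 CPM in Dnmt3a and at 661, 714 and 672 CPM in MxCre. The Tnfr1KO mice held 872, 498 and 652 CPM and the Tnfr2KO mice 1075, 476, 981 and 567 CPM, so the Dnmt3a mice again lay above all others. Of 42 histone genes tested, 7 differed between Dnmt3a and MxCre, where 2.95% of 10131 genes did. DESeq2 passed 2 histone genes here, beside 2.51% of all genes. The H1 genes Hist1h1b, Hist1h1a and Hist1h1e and the H2A genes Hist1h2an and Hist2h2ac rose, and the H2A genes Hist1h2ap and Hist2h2aa1 fell, beside 1.2% of all genes that rose and 1.75% that fell. No H2B, H3 or H4 gene passed.

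In the HSC/MPP-marker cells Hist1h1b was at 1440.0, 602, 787 and 786 CPM in Dnmt3a and at 353, 314 and 305 CPM in MxCre. The groups did not overlap, and the gene rose by 1.35 (SE 0.269, edgeR adjusted p 0.00800). Hist1h2an was at 78.0, 7.0, 16.1 and 23.5 CPM in Dnmt3a and at 3.03, 2.25 and 2.30 in MxCre, a rise of 3.36 (SE 0.528, edgeR adjusted p 0.0012). Hist1h1a rose by 1.5 and Hist1h1e by 1.08 (edgeR adjusted p 0.0268 and 0.0421), while Hist2h2ac rose by 1.29 (edgeR adjusted p 0.0338). Without Dnmt3a replicate 1, 3 of these passed (1.44% of all genes): Hist1h2an with 2.40, Hist1h1b with 1.09 and Hist2h2aa1 with -1.99 (edgeR adjusted p 0.00779, 0.0273 and 0.0193). The Dnmt3a mice held 45, 92, 118 and 40 such cells, so levels of a few CPM rest on few UMIs. Hist2h2aa1, at 13.8, 2.92, 7.10 and 6.52 CPM in Dnmt3a, is a case. With the library set as a term none of the 7 passed, where 0.267% of all genes did. Hist1h1b, Hist1h1a and Hist1h1e were then at 1.46, 1.73 and 1.25 (SE 0.443, 0.689 and 0.504), Hist1h2an at 1.67 and Hist2h2ac at 0.0992, while Hist1h2ap and Hist2h2aa1 turned to 1.49 and 0.48.

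Against Dnmt3a, HSC/MPP-marker cells of Tnfr1KO had lower Hist2h2ac, Hist1h2an and Hist1h1b and higher Hist1h2ap (4 of 42, beside 0.573% of all genes). Those of Tnfr2KO had lower Hist2h2ac, Hist1h2an and Hist1h1e and higher Hist1h2ap (4 of 42, beside 0.494%). Hist2h2ac was at 7.82, 8.24 and 10.5 CPM in the Tnfr1KO mice, 14.6, 8.95, 60.3 and 18.6 in the Tnfr2KO mice and 270.4, 86.9, 55.5 and 82.1 in the Dnmt3a mice. The Tnfr1KO mice held 59, 145 and 61 such cells, so their levels rest on few UMIs. Hist2h2ac fell by 3.63 in Tnfr1KO (SE 0.503, edgeR adjusted p 0.000634) and by 2.67 in Tnfr2KO (SE 0.400, edgeR adjusted p 0.00138). When Dnmt3a replicate 1 was left out, the falls were 3.0 and 2.05, and both passed (edgeR adjusted p 0.000164 and 0.000658). With the library set as a term none of the calls held in either genotype, beside 0.188% of all genes for Tnfr1KO and 0.217% for Tnfr2KO, and Hist1h2ap turned to -1.17 and -0.37. Hist2h2ac was then at -2.44 (SE 0.856, edgeR adjusted p 0.432) in Tnfr1KO and -2.02 (SE 0.502, edgeR adjusted p 0.145) in Tnfr2KO. DESeq2 passed 3 histone genes for Tnfr1KO (1.07% of all genes) and 1 for Tnfr2KO (0.829%). Within the high-numbered libraries no histone gene passed for Tnfr2KO (0.159%). The 3 calls other than Hist2h2ac in each comparison were lost without Dnmt3a replicate 1. For Hist1h2ap that mouse, at 66.1 CPM, lay within the other Dnmt3a mice (52.3 to 111). For Hist1h2an, Hist1h1b and Hist1h1e it was the highest. Without it Hist2h2aa1 passed for Tnfr1KO, at 2.13 (edgeR adjusted p 0.0351), beside 0.417% of all genes for Tnfr1KO and 0.288% for Tnfr2KO. Hist2h2ac was also the only histone gene that differed between Tnfr1KO and MxCre in these cells, by -2.34 (SE 0.530, edgeR adjusted p 0.0261, where 0.977% of genes passed), with the MxCre mice at 43.5, 51.1 and 42.0 CPM. DESeq2 passed none there (0.711% of all genes). Between Tnfr2KO and Tnfr1KO no histone gene passed (0.0395% of all genes, 1 of 42 at an unadjusted p under 0.05 in edgeR, where 4.63% of all genes were).

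Granulocyte-marker cells (28374 cells, 6325 at the lower limit of the rule) gave 5 of 62 histone genes that differed between Dnmt3a and MxCre, beside 3.36% of all genes. Hist1h1a and Hist1h1b rose by 1.65 and 1.35, and Hist2h3b, Hist1h2br and Hist2h2aa1 fell by 2.14, 1.94 and 1.82 (edgeR adjusted p between 0.0291 and 0.0498), beside 1.89% of all genes that rose and 1.47% that fell. Hist1h1b was at 2352, 860.5, 963 and 981 CPM in Dnmt3a and at 384, 436 and 477 CPM in MxCre, without overlap. With MxCre replicate 1, 2 or 3 or Dnmt3a replicate 3 left out, no histone gene passed. Over the fits with each mouse left out, 0.0142% to 6.31% of all genes passed. Without Dnmt3a replicate 1 only Hist2h3b passed among the histone genes, at -2.24 (edgeR adjusted p 0.0478, where 1.4% of all genes passed). That mouse was the Dnmt3a mouse nearest to MxCre for Hist2h2aa1 (11.2 CPM against 4.90 to 7.58) and Hist1h2br (6.84 against 2.70 to 5.12). It thus did not carry the falls of Hist2h2aa1 and Hist1h2br, while for Hist1h1b it was the farthest from MxCre. With the library set as a term none of the 5 did (0.204% of all genes), and Hist2h2aa1 turned to 0.0381. Hist1h1a and Hist1h1b were then at 1.34 and 0.93 (SE 0.681 and 0.556, edgeR adjusted p 0.513 and 0.559), Hist2h3b at -0.67 and Hist1h2br at -0.04. DESeq2 passed 10 (8.13%). Tnfr1KO differed from Dnmt3a in 6 genes (3.81% of all genes): Hist1h2ap, Hist2h3b, Hist1h2br and Hist2h2aa1 were higher, and Hist2h2ac and Hist1h2an lower. With Tnfr1KO replicate 1, 2 or 3 left out, none of the 6 passed. Over the fits with each mouse left out, 0.0992% to 6.31% of all genes passed here. All of the 6 but Hist2h2ac, Hist2h3b and Hist2h2aa1 lost the call without Dnmt3a replicate 1 (1.94% of all genes passed). For Hist1h2ap that mouse, at 77.0 CPM, lay within the other Dnmt3a mice (53.2 to 101). For Hist1h2br it was the Dnmt3a mouse nearest to Tnfr1KO, so these lost calls do not show that it carried the difference. For Hist1h2an it was the farthest, at 93.9 CPM against 6.38 to 13.7. The library set as a term left none of the 6 (0.197%), with Hist1h2ap at -0.49, Hist2h2aa1 at -0.00078 and Hist2h2ac at -1.64 (SE 0.907, edgeR adjusted p 0.508), and DESeq2 passed 9 (8.88%). Hist2h3b, Hist1h2br, Hist2h2aa1 and Hist1h2ap are the 4 genes ordered by library number. Tnfr2KO against Dnmt3a gave no histone gene (2.15% of all genes), with 15 of 62 at an unadjusted p under 0.05 in edgeR (22.9% of all genes) and 5 passing in DESeq2 (8.06% of all genes).

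In erythroid-marker cells (5154 cells) no histone gene passed between Dnmt3a and MxCre by edgeR, nor did any other gene (0.0%), while 24 of 59 had an unadjusted p under 0.05 (18.1% of all genes) and DESeq2 passed 7 (1.93% of all genes). Here a second mouse stood out: all 64 genes together were at 8153 CPM in Dnmt3a replicate 1 and 9154 CPM in Dnmt3a replicate 4, against 1469 to 5234 CPM in the other 12. The H1 genes were at 4696, 1501, 1576 and 4837 CPM in Dnmt3a and at 795, 986 and 999 CPM in MxCre, without overlap. Of the 59 genes, 52 had a positive log2 difference, with a median of 1.00, beside a median of 0.05 over all genes. With Dnmt3a replicate 1 left out, the median was 0.96, again with 52 above 0, beside 0.02 over all genes. That fit kept Dnmt3a replicate 4, the highest mouse here, so it cannot show whether the median holds without it. No median without Dnmt3a replicate 4 is given. The lowest Dnmt3a mouse held 2590 CPM of all 64 genes in these cells, below the MxCre mice at 2970 to 3273 CPM. Dnmt3a replicate 4 was also the mouse with the most UMIs of the 15 mature blood cell genes, 52559 CPM against 1621 to 23442 in the other 13. Their part in its erythroid-marker cells was not tested.

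Per cell, the histone share of UMIs was spread unevenly. In Dnmt3a replicate 1, 36.7% of cells had at least 1% of their UMIs from the 64 genes, against 0.0932% to 14.1% of cells in the other 13 libraries. Barcodes under 1000 UMIs, which hold free RNA and broken cells, carried 0.567% histone UMIs in Dnmt3a replicate 1 (exact 95% interval 0.559% to 0.576%, counting error only) and 0.0570% to 0.297% in the others. Its kept cells held 0.853%. The part of free RNA in the level of this library was not tested.

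**Figure D4:**
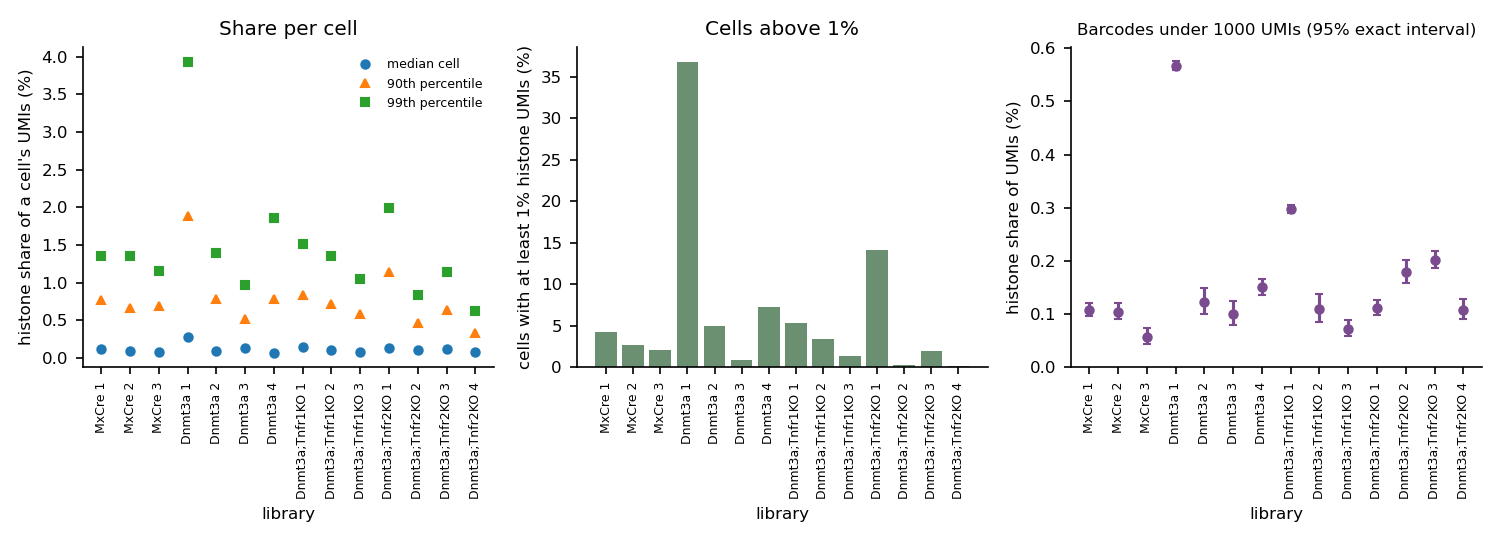
Per library (x axis), the median, 90th and 99th percentile of the histone share of UMIs per cell, the percent of cells with at least 1% histone UMIs, and the histone share in barcodes under 1000 UMIs with its exact 95% interval (y axes, percent). Dnmt3a replicate 1 is the highest in the last measure at 0.567% and in the share of such cells at 36.7%.

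To follow the cell cycle, cells were thinned to 5000 UMIs and ranked by UMIs of the S phase list and of a G2/M list of 32 genes, neither holding a histone gene. S-high cells had at least 24 UMIs of the first list and S-low cells at most 10, and 8863 and 10919 of 60166 cells lay within 2 UMIs of these limits, so the classes are ranges and not phases. In S-high cells 35 of 61 histone genes rose and 11 fell against S-low cells of the same mice, where 71.1% of all genes changed (35.3% rose and 35.8% fell). Their median was 0.26 beside -0.01 over all genes. Hist1h1a rose most, by 1.85 (SE 0.0545), from a mean of 33.3 to 122 CPM and in 14 of 14 mice, and Hist1h1b rose by 1.1, from 442 to 984 CPM, also in 14 of 14.

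Of the 11 genes that fell in S-high cells, Hist3h2a fell by 1.55 (SE 0.0606), from 19.2 to 6.54 CPM, in 14 of 14 mice. Hist1h2bc fell by 1.13, from 65.0 to 29.2 CPM, in 14 of 14 mice, and Hist1h2ac and Hist3h2ba each fell by 1.03. Hist1h1c, the H1.2 gene, fell by 0.44 while the 4 H1 genes that rose included Hist1h1a and Hist1h1b. By type, the summed H1 level was higher in S-high cells in 14 of 14 mice (median ratio 1.69), H2A in 14 (1.32), H3 in 14 (1.17), H4 in 8 (1.02) and H2B in 3 (0.893).

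The difference along the G2/M list, a comparison added after seeing the data, was larger. Cells with at least 22 UMIs of that list, against cells with at most 3, had higher levels of 60 of 61 histone genes, where 74.0% of all genes changed (34.2% rose and 39.7% fell), with a median of 2.68 beside -0.03 over all genes. Hist1h2af rose by 5.44, from 0.760 to 33.2 CPM, and Hist1h1b by 3.98, from 69.0 to 1113 CPM. Hist1h2bc alone fell, by 1.52 (SE 0.104), from 79.5 to 27.4 CPM, in 14 of 14 mice. The summed level was higher in 14 of 14 mice for every type, with median ratios of 7.22 for H1, 9.42 for H2A, 2.41 for H2B, 7.78 for H3 and 5.16 for H4.

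Cells high in both lists, 1788 in all, held 3574 to 16889 CPM of histone UMIs, and cells low in both, 5905 in all, held 320 to 1822 CPM, a median ratio of 9.76 within mice. Cells high in the S phase list and low in the G2/M list lay between, at 1.71 times the cells low in both. Low in the G2/M list meant at most 10 UMIs, the median, for that class and at most 3 for cells low in both. The S-high class also had fewer UMIs of 30 of the 32 G2/M genes than the S-low class.

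**Figure D5:**
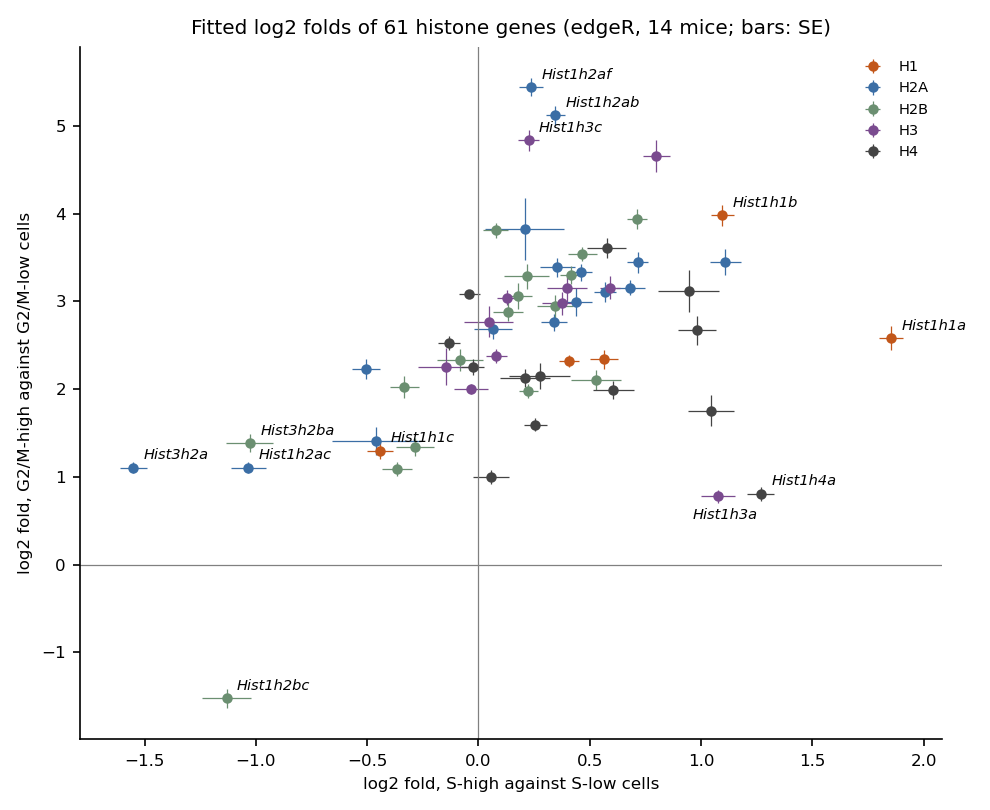
Log2 fold change of 61 histone genes between S-high and S-low cells (x axis) and between G2/M-high and G2/M-low cells (y axis), with SE bars and coloured by type. All but Hist1h2bc, at -1.13 and -1.52, lie above 0 on the y axis, and the points spread on both sides of 0 on the x axis.

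Against HSC/MPP-marker cells of the same mice, 36 of 59 histone genes rose and 5 fell in granulocyte-marker cells (78.2% of all genes changed, 39.1% in each direction). The split depended on the scaling: with library totals in place of TMM factors, which moved the median of all genes to -0.33, 11 rose and 14 fell (81.0% of all genes changed). Monocyte-marker cells gave 38 of 48 higher and 5 lower (76.5% of all genes, 37.4% up and 39.1% down), erythroid-marker cells 35 of 44 higher and 0 lower (74.9%, 37.4% up and 37.5% down) and megakaryocyte-marker cells 24 of 38 higher and 5 lower (59.2%, 29.7% up and 29.5% down). Library totals gave 32 and 5, 26 and 2, and 22 and 5, where 78.8%, 70.4% and 58.8% of all genes changed. Hist1h1b rose in all 4, by 0.75, 1.23, 0.91 and 0.67, and was higher in 13 of 14, 14 of 14, 14 of 14 and 11 of 11 mice. The megakaryocyte comparison leaves out 3 libraries with fewer than 20 such cells.

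The chromosome 11 pair, Hist3h2ba and Hist3h2a, went the other way in granulocyte-marker cells. Hist3h2ba fell by 3.05 in granulocyte-marker cells (SE 0.167), from 7.84 to 0.793 CPM and in 14 of 14 mice, and by 1.89 in monocyte-marker cells. Hist3h2a fell by 0.77 in granulocyte-marker cells, from 17.2 to 8.03 CPM in 14 of 14 mice. Hist1h2bc fell by 0.50 and 0.83 in granulocyte- and monocyte-marker cells, from 68.5 to 39.7 CPM in the former, in 14 of 14 mice each. The direction of Hist3h2ba, Hist3h2a and Hist1h2bc in these cells is the same under library totals. In monocyte-marker cells the summed level of all types was 1.29 times that of HSC/MPP-marker cells at the median and higher in 14 of 14 mice, and in granulocyte-marker cells 0.988 times and higher in 6 of 14.

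Other genes of the histone pathway were taken from lists drawn up with earlier results of these data known. Over all kept cells, none of the 19 genes of the histone transcript machinery (Slbp, Npat and others), the 11 histone chaperones or the 11 replication-independent histones passed in edgeR in any of the 6 comparisons. In HSC/MPP-marker cells H2afy, the gene of the variant macroH2A1, rose against MxCre in Dnmt3a by 0.66, in Tnfr1KO by 0.91 and in Tnfr2KO by 0.54 (edgeR adjusted p 0.00796, 0.000883 and 0.0484). All 3 passed without Dnmt3a replicate 1, and with the library set as a term the rise in Tnfr1KO did (edgeR adjusted p 0.000509). Npat, the activator of the histone clusters, fell against Dnmt3a in granulocyte-marker cells by 0.68 in Tnfr1KO and by 0.73 in Tnfr2KO (edgeR adjusted p 0.0357 and 0.0263). Without Dnmt3a replicate 1 it fell by 0.47 and 0.52 and passed in both (edgeR adjusted p 0.0436 and 0.0309), and with the library set as a term in neither (edgeR adjusted p 0.458 and 0.143). Casp8ap2, a partner of NPAT at the histone genes, rose against MxCre in Dnmt3a granulocyte-marker cells by 0.55 (edgeR adjusted p 0.0291), and by 0.46 without Dnmt3a replicate 1 (edgeR adjusted p 0.0442). With the library set as a term it was at 0.49 and missed the threshold (edgeR adjusted p 0.450).

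Of the proliferation lists, 1 of 39 S phase genes and 2 of 32 G2/M genes rose between Dnmt3a and MxCre over all kept cells and none fell, where 2.38% of all genes changed. They were Brip1, a helicase of replication fork repair, by 0.74, Mki67, the gene of the proliferation marker Ki-67, by 1.02, and Cenpe, a kinetochore motor, by 0.83 (edgeR adjusted p 0.0414, 0.0407 and 0.0431). When Dnmt3a replicate 1 was left out, none of the 3 passed (edgeR adjusted p 0.0623, 0.0632 and 0.0788). With the library set as a term none did either, with folds of 0.75, 1.01 and 0.75 (edgeR adjusted p 0.501, 0.494 and 0.548). Between S-high and S-low cells, 11 of 11 histone chaperones rose, and of the histone transcript machinery 14 of 19 rose and 2 fell, where 35.3% of all genes rose and 35.8% fell.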

How the data were processed

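The deposited files are UMI counts per gene and barcode, raw whole numbers made by the authors from 14 libraries with bcl2fastq 2.20.0.422 and Cell Ranger 6.0.0 on mm10 (GRCm38), per the submitters' processing notes. Kept barcodes had 1000 or more UMIs, 500 or more detected genes and a mitochondrial share below 10%. Doublets were called by simulation within each library (0.8% expected per 1000 cells) and removed. A cell got a lineage when it held at least 3 of 8 markers of that lineage and at least 2 more than of any other. Counts were summed per mouse over all kept cells or over 1 lineage with at least 20 cells and tested with edgeR 4.0.16 (R 4.3.3): quasi-likelihood test, TMM scaling, filterByExpr, the 4 groups in 1 model, Benjamini-Hochberg adjustment over all genes tested, two-sided, called at an adjusted p below 0.05. Lineages and cell cycle classes were compared with the mouse as a block. CPM is relative to all UMIs of the summed cells. Groups come from the sample titles.

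Alternatives were DESeq2 1.42.0, RLE factors, library totals, no filter, fits of 2 groups, the replicate number as a block, doublets kept, 2000 UMIs or more, 4 markers, cells thinned to 3000 UMIs, each mouse left out, the library set and, for summed levels, no B-lymphoid-marker cells. On simulated counts for Dnmt3a against MxCre (15598 genes), 62% of genes changed by 1 on the log2 scale and 100% of those changed by 2 were recovered. Without a strand-specific reference, antisense and overlapping genes were not separated further. The histone genes and all lists were chosen with earlier results of these data known. The genes named are the 12 members with the most UMIs, up to 8 called members per comparison with at least 1 CPM in either group, and genes singled out afterwards, as stated there. The mature blood cell and RNA quality lists were summed only. Gene positions come from RefSeq (GRCm38.p6).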

Additional observations from a re-analysis of the deposited data

Results flagged for a closer look

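Among groups of 4 mice, a sample was singled out when its gap to the nearest other mouse took up most of the group's range (Dixon's test), which chance does in about 1 in 20 groups. Over 26 measures, 10 of 52 such groups held one, and 9 of the 10 were Dnmt3a replicate 1. The measures are not independent, because the sums hold the single genes, so this count cannot be set against that rate. In that mouse the summed level of all histone genes was 8529.8 CPM, that of H1 4733 CPM and that of H3 1099.7 CPM. Its single genes that stood apart were Hist1h1e at 1194 CPM, Hist1h3c at 714 CPM, Hist2h2ac at 471 CPM, Hist1h1c at 374 CPM, Hist1h1a at 361 CPM and Hist1h2an at 113 CPM. The remaining case was Tnfr2KO replicate 1, in which 14.1% of cells had at least 1% of their UMIs from histone genes.

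Barcodes under 1000 UMIs enter none of the comparisons. Their histone share was above the MxCre range of 0.0570% to 0.108%, beyond counting error, in 5 libraries: 0.567% in Dnmt3a replicate 1, 0.297% in Tnfr1KO replicate 1, 0.201% in Tnfr2KO replicate 3, 0.178% in Tnfr2KO replicate 2 and 0.150% in Dnmt3a replicate 4.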

How the results depend on the processing

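Of 648 recomputed counts and ratios for 34 results, 554 stayed within the limits set (a count within 1.5 times, or a ratio within the replicate spread) and 94 did not; the cause was not tested. Counts of histone genes that passed follow, each with the share of all genes that passed in the same fit and then the count as reported in brackets. Between Dnmt3a and MxCre over all kept cells, DESeq2 gave 7 (9.49%), the replicate block 2 (0.883%), doublets kept 0 (2.32%) and the library set term 0 (0.122%) [1]. Between Tnfr1KO and Dnmt3a, DESeq2 gave 6 (5.76%), library totals 4 (3.5%), the fit of 2 groups 4 (0.426%) and the replicate block 2 (0.224%) [0]. Between Tnfr2KO and Dnmt3a, DESeq2 gave 4 (6.68%) and library totals 7 (9.97%) [0]. Against MxCre, Tnfr1KO gave 1 in the fit of 2 groups (0.692%) and 1 within library sets (2.3%) [0], and Tnfr2KO 2 within library sets (0.807%) [0]. In HSC/MPP-marker cells, DESeq2 gave 2 (2.51%) and the set term 0 (0.267%) between Dnmt3a and MxCre [7]. For Tnfr1KO against Dnmt3a the set term gave 0 (0.188%) [4]. For Tnfr2KO against Dnmt3a, DESeq2 gave 1 (0.829%), the set term 0 (0.217%) and within sets 0 (0.159%) [4]. DESeq2 gave 0 (0.711%) for Tnfr1KO against MxCre [1], and within sets Tnfr2KO against MxCre gave 1 (1.17%) [0]. In granulocyte-marker cells, DESeq2 gave 10 (8.13%) and the set term 0 (0.204%) between Dnmt3a and MxCre [5], and the replicate block 3 (0.803%) and the set term 0 (0.197%) between Tnfr1KO and Dnmt3a [6]. For Tnfr2KO against Dnmt3a, DESeq2 gave 5 (8.06%), library totals 7 (12.8%) and the replicate block 1 (0.92%) [0]. Within sets, Tnfr1KO gave 1 (0.449%) and Tnfr2KO 1 (0.928%) against MxCre [0]. In erythroid-marker cells DESeq2 gave 7 (1.93%), 6 (0.829%) and 12 (1.09%) for Dnmt3a against MxCre and Tnfr1KO and Tnfr2KO against Dnmt3a [0 each]. Granulocyte- against HSC/MPP-marker cells gave 25 (81.0%) with library totals [41].

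With each mouse left out in turn, the counts ran as follows, with the range of the share of all genes. For Dnmt3a against MxCre they were 0 to 5 (0.0% to 8.02%) over all kept cells, 1 to 8 (0.627% to 4.56%) in HSC/MPP-, 0 to 7 (0.0142% to 6.31%) in granulocyte- and 0 to 4 (0.0% to 3.05%) in erythroid-marker cells. For Tnfr1KO against Dnmt3a they were 0 to 3 (0.0498% to 1.91%), 1 to 5 (0.106% to 1.2%), 0 to 8 (0.0992% to 6.31%) and 0 to 1 (0.00907% to 0.535%). For Tnfr2KO against Dnmt3a they were 0 to 4 (0.193% to 5.1%), 1 to 6 (0.228% to 1.27%), 0 to 5 (0.362% to 6.14%) and 0 to 9 (0.0562% to 1.87%). In HSC/MPP-marker cells both receptor genotypes gave 0 to 1 against MxCre (0.27% to 1.55% for Tnfr1KO and 0.366% to 0.982% for Tnfr2KO). The log2 ratio of the total histone level between Dnmt3a and MxCre, 0.56, ran from -0.0189 to 0.76, and its sign changed without Dnmt3a replicate 1.

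Signs changed with the library set for 2 genes. With the set as a term, Hist1h2ap in HSC/MPP-marker cells went to 1.49 for Dnmt3a against MxCre, -1.17 for Tnfr1KO against Dnmt3a and -0.37 for Tnfr2KO against Dnmt3a (-0.33 within sets), and in granulocyte-marker cells to -0.49 for Tnfr1KO against Dnmt3a. Hist2h2aa1 went to 0.48 in HSC/MPP- and 0.0381 in granulocyte-marker cells for Dnmt3a against MxCre, and to -0.00078 for Tnfr1KO against Dnmt3a in the latter.

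The replicate numbers did not pair mice: over 19 same-numbered pairs the correlation of deviations ran from -0.384 to 0.424 (median -0.0155). The replicate block kept 20 of 24 counts within 1.5 times. Cell number limits what can be tested: HSC/MPP-marker cells numbered 36 to 773 per mouse, and 42 histone genes could be tested between genotypes there against 63 over all kept cells.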
